A study of Homo sapiens with 6 samples.

Results

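The miR-23/27/24 clusters are a pair of short runs of hairpins that each give miR-23, miR-27 and miR-24 from 1 transcript. They were followed here through 10 of the 2656 mature miRNAs in the count table, chosen by name. Of these, 5 come only from the a cluster on chromosome 19 (miR-23a-3p, miR-23a-5p, miR-27a-3p, miR-27a-5p and miR-24-2-5p). Another 4 come only from the b cluster on chromosome 9 (miR-23b-3p, miR-27b-3p, miR-27b-5p and miR-24-1-5p). miR-24-3p is made by both clusters. All 10 passed the filter on low counts that left 768 miRNAs for testing.

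The small RNA libraries were from K562, an established human erythroleukaemia line that the labels class as myeloblast, in 2 groups of 3 libraries. One group was the azacitidine-sensitive line, and the other was the same line after months of growth in rising concentrations of azacitidine, a cytidine analogue that traps DNA methyltransferases. Both groups were cultured in RPMI medium with serum and antibiotics. Every library name ends in NT, a tag that the titles and library names do not explain. Whether the drug was in the medium at harvest is not given in the sources used here. The labels call the 3 libraries of a group biological replicates but name no separate selections of resistant cells, so p-values cover the spread between these libraries.

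A miRNA guides Argonaute proteins to transcripts that pair with its seed, bases 2 to 8 from its 5′ end. A hairpin is cut into a 5p and a 3p arm, of which usually one is kept. In blood cells the a cluster is known as a target of the transcription factor PU.1. Among known targets, miR-27 represses RUNX1 and PPARG, and miR-24 represses the activin receptor ACVR1B. K562 cells carry features of both the myeloid and the erythroid lineage.

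The sequences show why the clusters can be compared as paralogues and where they are hard to tell apart. The 3p arms are given first and the 5p arms after them, 5′ to 3′ from RefSeq (GRCh38.p14), with the seed in capitals. All 10 members were found there by name.
hsa-miR-23a-3p: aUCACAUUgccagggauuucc
hsa-miR-23b-3p: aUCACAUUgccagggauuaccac
hsa-miR-27a-3p: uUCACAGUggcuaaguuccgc
hsa-miR-27b-3p: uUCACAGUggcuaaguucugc
hsa-miR-24-3p: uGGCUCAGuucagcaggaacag
hsa-miR-23a-5p: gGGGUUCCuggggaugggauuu
hsa-miR-27a-5p: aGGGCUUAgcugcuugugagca
hsa-miR-27b-5p: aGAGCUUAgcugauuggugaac
hsa-miR-24-2-5p: uGCCUACUgagcugaaacacag
hsa-miR-24-1-5p: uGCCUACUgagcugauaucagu

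Counted from the 5′ end, miR-23a-3p differs from miR-23b-3p over their shared 21 bases by 1 substitution, U19A, and miR-23b-3p is 2 bases longer. miR-27a-3p differs from miR-27b-3p by C19U alone. Both differences lie outside the seed, so each pair shares its seed. How reads that fit both paralogues were counted is not given in the sources used here, and the split of miR-23-3p and miR-27-3p reads between the clusters is uncertain for that reason. The 5p arms separate the clusters better: miR-24-2-5p differs from miR-24-1-5p at 6 of 22 bases and miR-27a-5p from miR-27b-5p at 8 of 22. The seed of miR-27a-5p and that of miR-27b-5p differ by the substitution G3A. Those of miR-24-2-5p and miR-24-1-5p are the same. Among other miRNAs in the table, miR-23c has the miR-23 seed, miR-9985 the miR-27 seed and miR-23b-5p the seed of miR-23a-5p.

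The a cluster spans 373 bases on the minus strand (GRCh38, chr19:13836287-13836659), with MIR23A first, MIR27A next and MIR24-2 last in the direction of transcription. In GENCODE 29 all 3 of its hairpins lie in an exon of the non-coding transcript AC020916.1. The b cluster spans 881 bases on the plus strand (chr9:95085208-95086088), in the order MIR23B, MIR27B and MIR24-1. MIR23B and MIR27B lie in introns of all 7 overlapping transcripts of C9orf3, and MIR24-1 in an intron of 6 of them and an exon of 1. MIR3074 overlaps MIR24-1 on the opposite strand. Whether the counting used strand is not given in the sources used here.

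Resistant replicate 3 stood apart from the other libraries. Its Pearson correlation with resistant replicates 1 and 2 over tested miRNAs (log2 CPM, counts scaled to a common library size) was 0.875 and 0.864, while all other pairs within a group lay between 0.978 and 0.995. It was the shallowest library, with 3291500 counts against 5660055 to 12563945 in the others. miR-92a-3p held 58.6% of its counts (10.5% to 20.2% elsewhere), and 11 fragment-like annotations, listed as a sign of RNA quality, held 4.87% (0.982% to 1.65% elsewhere). Most of that 4.87% was miR-1260a (2.22%) and miR-1260b (2.35%). Not every listed annotation rose: miR-1246, at 0.293%, lay within the range of the other libraries (0.0880% to 0.538%). The 5 erythroid marker miRNAs held 0.528% to 0.707% of a sensitive library, against 1.71%, 1.35% and 5.04% of resistant replicates 1 to 3. Most of this sum is miR-486-5p, at 6215, 6077 and 4744 CPM in the sensitive libraries and 13140, 9582 and 63300 in the resistant ones. miR-486-3p was also higher in each resistant library, at 503, 440 and 1704 CPM against 237 to 320 in sensitive libraries. The other erythroid markers did not share this rise. miR-451a was at 195.5, 176.6 and 51.5 CPM in resistant replicates 1 to 3, against 192 to 343 in sensitive libraries. miR-144-3p was at 199.6, 269 and 47.5 CPM against 107 to 303, and miR-144-5p at 387.3, 365.6 and 115.9 CPM against 164.9 to 382.8. The 3 blood-cell markers, miR-142-3p, miR-142-5p and miR-223-3p, held 0.996% to 1.30% in all libraries but resistant replicate 3, where they held 0.104%. Of these, miR-223-3p was lower in every resistant library, at 1111, 1158 and 185 CPM against 2000 to 3026 in sensitive ones. The 6 markers of other tissues summed to at most 8.24 CPM, and miR-208b-3p had no count in any library. The members' results are therefore given with and without resistant replicate 3, and the part of these marker shifts in them was not tested.

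Across the clusters, no member was called different between resistant and sensitive cells with all 6 libraries. The edgeR quasi-likelihood test gave 0 of 10 members an unadjusted p under 0.05, against 205 of 768 tested miRNAs. At an adjusted p under 0.05 the test called 0 of 10 members. Over all tested miRNAs it called 32 of 768, which is 4.17%, with 16 higher and 16 lower (27 and 16 when library totals alone set the scale, a change that moved the median miRNA by 0.19 on the log2 scale). DESeq2, which called 19.4% of all tested miRNAs, and limma-voom also called 0 members. When limma-voom weighted each library by its quality, 3 of 10 members were called, miR-27a-5p higher and miR-23b-3p and miR-27b-3p lower, against 42.1% of all tested miRNAs. The median log2 fold change, resistant over sensitive, was -0.19 over the members and -0.11 over all tested miRNAs. All 4 b cluster members and 3 of the 5 a cluster members had negative log2 fold changes.

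Without resistant replicate 3, 1 member passed: miR-27b-3p fell. That test called 231 of 822 miRNAs, 28.1%, of which 118, or 14.4% of those tested, were lower. The share of members called lower, 1 of 10, lay near this background. The members' median log2 fold change was then 0.08, against 0.04 over all tested miRNAs, with 2 of 4 b cluster members and 1 of 5 a cluster members negative.

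**Figure D1:**
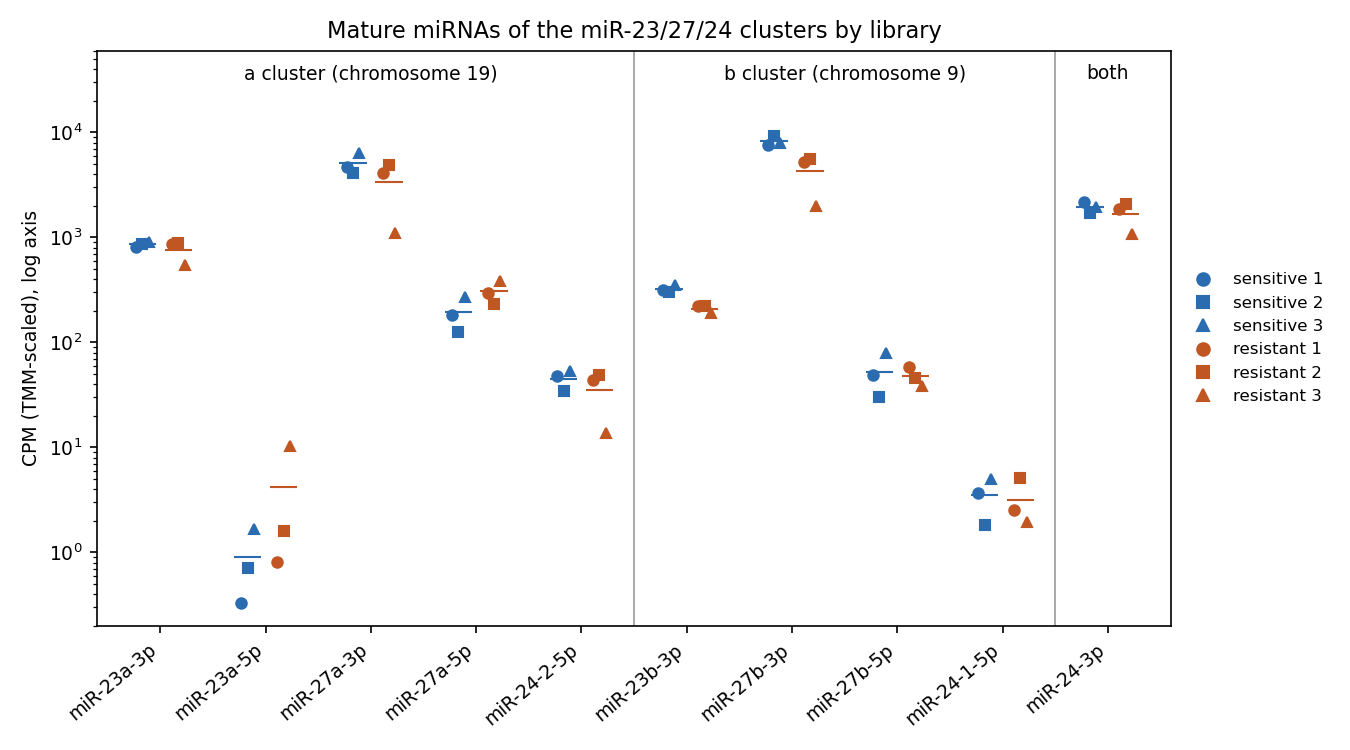
CPM of the 10 members on a log axis, by cluster, with 1 point per library (symbol for the replicate, blue for sensitive, orange for resistant) and a bar at each group mean. miR-27b-3p and miR-23b-3p are the members whose groups do not overlap, and resistant replicate 3 is the lowest of all 6 libraries for 6 members and the highest for 2, miR-23a-5p and miR-27a-5p.

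hsa-miR-27b-3p, the most abundant member, is the 3p arm of the middle hairpin of the b cluster. Its CPM, scaled with trimmed mean of M values (TMM) factors, was 7632, 9271 and 7935 in sensitive replicates 1 to 3 and 5234, 5543 and 2014 in resistant replicates 1 to 3. Every resistant library lay below every sensitive one, with resistant replicate 3 the lowest by far. The group means were 8280 ± 872 for sensitive and 4264 ± 1954 for resistant cells (CPM, SD, n = 3 libraries a group), and the log2 fold change was -0.96 (SE 0.47, 95% interval -2.04 to 0.12, edgeR adjusted p = 0.224). Without resistant replicate 3 it was 1.48-fold lower (log2 fold change -0.57, SE 0.18, 95% interval -0.96 to -0.17, edgeR adjusted p = 0.0369). As a share of all counts, without any scaling factor, miR-27b-3p was 0.730%, 0.890% and 0.758% in sensitive and 0.619%, 0.690% and 0.156% in resistant libraries. The groups did not overlap on that scale, which uses the same counts. miR-92a-3p held 17.5% to 58.65% of a resistant library, against 10.5% to 14.31% of a sensitive one. Its part in these shares was not tested. In bulk RNA such as this, fewer cells with a miRNA and less of it per cell cannot be told apart.

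hsa-miR-23b-3p, the 3p arm of the first b cluster hairpin, was at 317, 300 and 350 CPM in the sensitive libraries, against 221, 221 and 189 in the resistant ones. The groups did not overlap, and resistant replicate 3 lay close to the other resistant libraries. Its log2 fold change was -0.62 (SE 0.35, 95% interval -1.42 to 0.18, edgeR adjusted p = 0.273), and -0.49 without resistant replicate 3 (SE 0.21, edgeR adjusted p = 0.104). miR-23b-3p and miR-27b-3p were the 2 members lower in every resistant library. Over all tested miRNAs the resistant group lay wholly below the sensitive group for 176 of 768, or 22.9%, so 2 of 10 members is near the background.

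The a cluster paralogues of these miRNAs did not separate the groups. hsa-miR-27a-3p, from the middle hairpin of the a cluster, was at 4705, 4137 and 6391 CPM in the sensitive libraries, against 4078, 4867 and 1097 in the resistant ones. Resistant replicates 1 and 2 lay within or just below the sensitive range, and only resistant replicate 3 was far below it. The log2 fold change was -0.60 (SE 0.57, 95% interval -1.91 to 0.71, edgeR adjusted p = 0.522) and -0.13 without resistant replicate 3 (95% interval -0.62 to 0.36, edgeR adjusted p = 0.728).

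hsa-miR-23a-3p was at 810, 864 and 902 CPM in the sensitive libraries, against 858, 894 and 546 in the resistant ones. Here too resistant replicates 1 and 2 fell among the sensitive libraries. Its log2 fold change was -0.16 (95% interval -1.02 to 0.69, edgeR adjusted p = 0.782), and it was 0.08 without resistant replicate 3 (95% interval -0.34 to 0.51, edgeR adjusted p = 0.807).

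hsa-miR-24-3p, which both clusters make and whose reads carry no mark of their origin, was at 2177, 1719 and 1939 CPM in the sensitive libraries, against 1860, 2069 and 1083 in the resistant ones. The groups overlapped, with resistant replicate 3 again the lowest. Its log2 fold change was -0.22 (95% interval -1.13 to 0.69, edgeR adjusted p = 0.721) and 0.07 without resistant replicate 3 (95% interval -0.36 to 0.50, edgeR adjusted p = 0.852).

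Of the 5p arms, hsa-miR-27a-5p was the most abundant, at 182, 126 and 272 CPM in the sensitive libraries, against 297, 233 and 387 in the resistant ones. Resistant replicate 2 fell below sensitive replicate 3, so the groups overlapped. The log2 fold change was 0.66 (SE 0.44, 95% interval -0.35 to 1.67, edgeR adjusted p = 0.349) and 0.50 without resistant replicate 3 (SE 0.30, edgeR adjusted p = 0.238). miR-27b-5p was at 48.4, 30.1 and 78.5 CPM in the sensitive libraries, against 58.6, 45.7 and 38.5 in the resistant ones, all within the sensitive range (log2 fold change -0.13, edgeR adjusted p = 0.847).

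The 5p arms of the miR-24 hairpins are the members that report on each cluster's miR-24 separately. miR-24-2-5p, of the a cluster, was at 47.9, 34.1 and 53.8 CPM in the sensitive libraries, against 44.1, 48.6 and 13.8 in the resistant ones. Only resistant replicate 3, with 35 counts, left the sensitive range (log2 fold change -0.34, edgeR adjusted p = 0.684, and 0.09 without that library, edgeR adjusted p = 0.859). miR-24-1-5p, of the b cluster, had 44, 18 and 27 counts in sensitive and 25, 67 and 5 counts in resistant libraries. At this depth its log2 fold change of -0.07 carries a 95% interval of -1.38 to 1.24 (edgeR adjusted p = 0.943).

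hsa-miR-23a-5p was the rarest member in sensitive cells, with 4, 7 and 9 counts there and 8, 21 and 26 counts in resistant libraries. In CPM these were 0.333, 0.715 and 1.67 against 0.814, 1.58 and 10.2, so that the groups overlapped and resistant replicate 3 stood alone. The log2 fold change was 2.13 (SE 1.07, 95% interval -0.34 to 4.60, edgeR adjusted p = 0.234). Without resistant replicate 3 it was 0.71 (95% interval -0.68 to 2.09, edgeR adjusted p = 0.460).

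**Figure D2:**
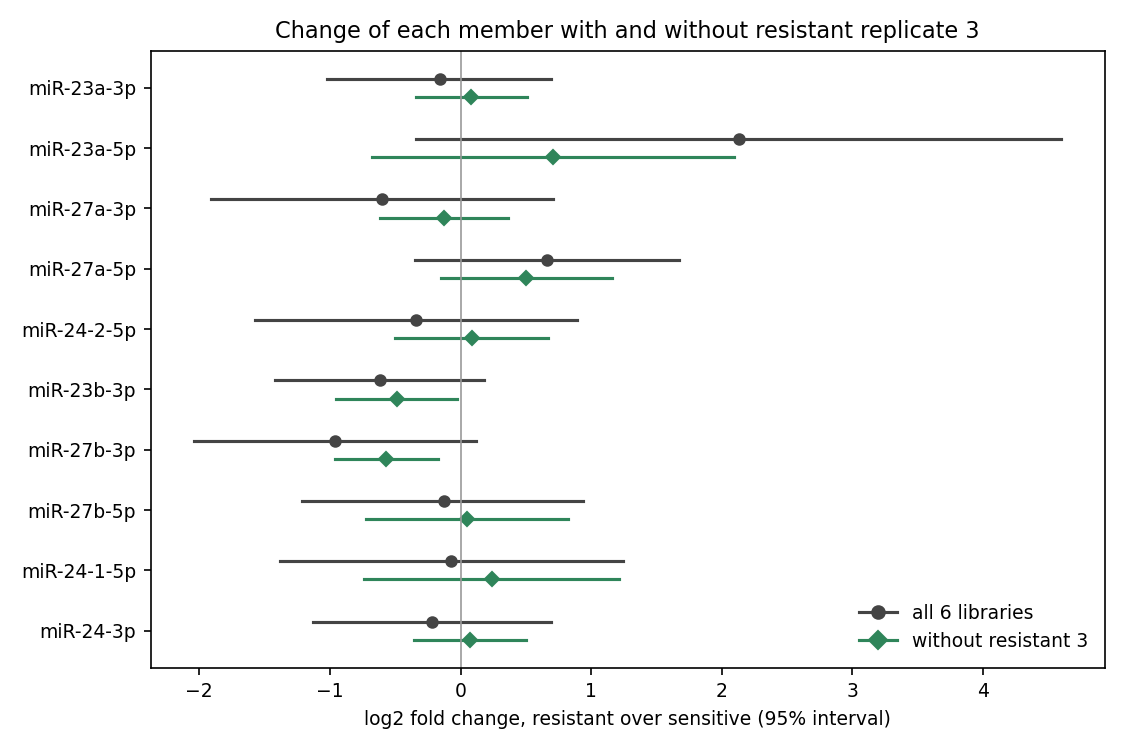
Log2 fold change of each member, resistant over sensitive, from the edgeR test with all 6 libraries (circles) and without resistant replicate 3 (diamonds), with 95% intervals from the test's t distribution. Every interval with all libraries includes 0. Without resistant replicate 3 those of miR-27b-3p (-0.96 to -0.17) and miR-23b-3p (-0.95 to -0.03) do not. The intervals are not adjusted for the number of tests. In the fit without resistant replicate 3, the unadjusted edgeR p was under 0.05 for 2 of 10 members and 316 of 822 tested miRNAs.

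Taken as shares of a library, the 10 members held 1.52%, 1.58% and 1.71% of all counts in sensitive and 1.50%, 1.73% and 0.416% in resistant libraries. Members of the b cluster alone held 0.765%, 0.922% and 0.799% in sensitive and 0.653%, 0.724% and 0.174% in resistant libraries. Those of the a cluster held 0.549%, 0.496% and 0.728% in sensitive and 0.624%, 0.752% and 0.159% in resistant libraries. So the b cluster share was lower in each resistant library than in any sensitive one. For the a cluster, resistant replicates 1 and 2 were within or above the sensitive range. Such shares also depend on the most abundant miRNA, miR-92a-3p. It held 20.22%, 17.5% and 58.65% of resistant replicates 1 to 3, against 10.5% to 14.31% of sensitive libraries. Its part in the cluster shares was not tested. The b cluster sum largely restates miR-27b-3p (91695 of 96131 counts in sensitive replicate 1), and the groups overlapped for miR-27b-5p and miR-24-1-5p. In CPM rather than in shares of counts, 22.9% of all tested miRNAs also lay wholly lower in the resistant group. The members' sums are mostly miR-27-3p: miR-27a-3p and miR-27b-3p together made up 77.5% to 81.3% of the members' counts in sensitive cells, against 73.6%, 74.7% and 57.8% in resistant replicates 1 to 3.

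The order of the levels was the same in both groups but for 2 exchanges of neighbours. By mean CPM in sensitive cells it ran miR-27b-3p, miR-27a-3p, miR-24-3p, miR-23a-3p, miR-23b-3p, miR-27a-5p, miR-27b-5p, miR-24-2-5p, miR-24-1-5p and miR-23a-5p. Only miR-27b-5p and miR-24-2-5p overlapped as neighbours there. In resistant cells miR-27a-5p ranked above miR-23b-3p, with the libraries of these neighbours apart. Also in resistant cells, miR-27b-3p and miR-27a-3p overlapped, as did miR-27a-3p and miR-24-3p, and miR-23a-5p ranked above miR-24-1-5p with overlap. With resistant replicates 1 and 2 alone, both of the abundant pairs were apart and miR-24-1-5p ranked above miR-23a-5p, as in sensitive cells, while miR-27a-5p still ranked above miR-23b-3p. The mature members are all 21 to 23 bases long. Adapter ligation favours some RNA ends over others, and its part in this order was not tested.

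The clusters were compared by ratios of paralogues within a library, which need no scaling between libraries. For miR-23-3p and miR-27-3p these ratios depend on how reads that fit both paralogues were counted, which is not given. miR-23b-3p over miR-23a-3p was 0.392, 0.347 and 0.389 in sensitive and 0.257, 0.247 and 0.347 in resistant libraries. Sensitive replicate 2 and resistant replicate 3 nearly met, and all other resistant values were lower than all sensitive ones. The mean log2 ratio differed by -0.42 between resistant and sensitive libraries (-1.83 ± 0.27 against -1.41 ± 0.10, SD, n = 3 libraries a group; exact two-sided permutation p = 0.1, the smallest that 3 against 3 allows, and 0.3 after Benjamini-Hochberg adjustment over 6 ratios). Without resistant replicate 3 the difference was -0.57 (exact permutation p = 0.2, the smallest that 3 against 2 allows).

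miR-27b-3p over miR-27a-3p was 1.62, 2.24 and 1.24 in sensitive and 1.28, 1.14 and 1.84 in resistant libraries. The groups overlapped and the mean log2 ratios differed by -0.25 (exact permutation p = 0.6), or by -0.45 without resistant replicate 3 (exact permutation p = 0.4). That miR-27b-3p passed and miR-27a-3p did not in the test without resistant replicate 3 is therefore not shown to be a difference between them. miR-24-1-5p over miR-24-2-5p was 0.0773, 0.0553 and 0.0943 in sensitive and 0.0588, 0.105 and 0.155 in resistant libraries, and its groups also overlapped (difference 0.41, exact permutation p = 0.4). Without resistant replicate 3, which had 5 counts of miR-24-1-5p, that difference was 0.09 (exact permutation p = 0.8).

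**Figure D3:**
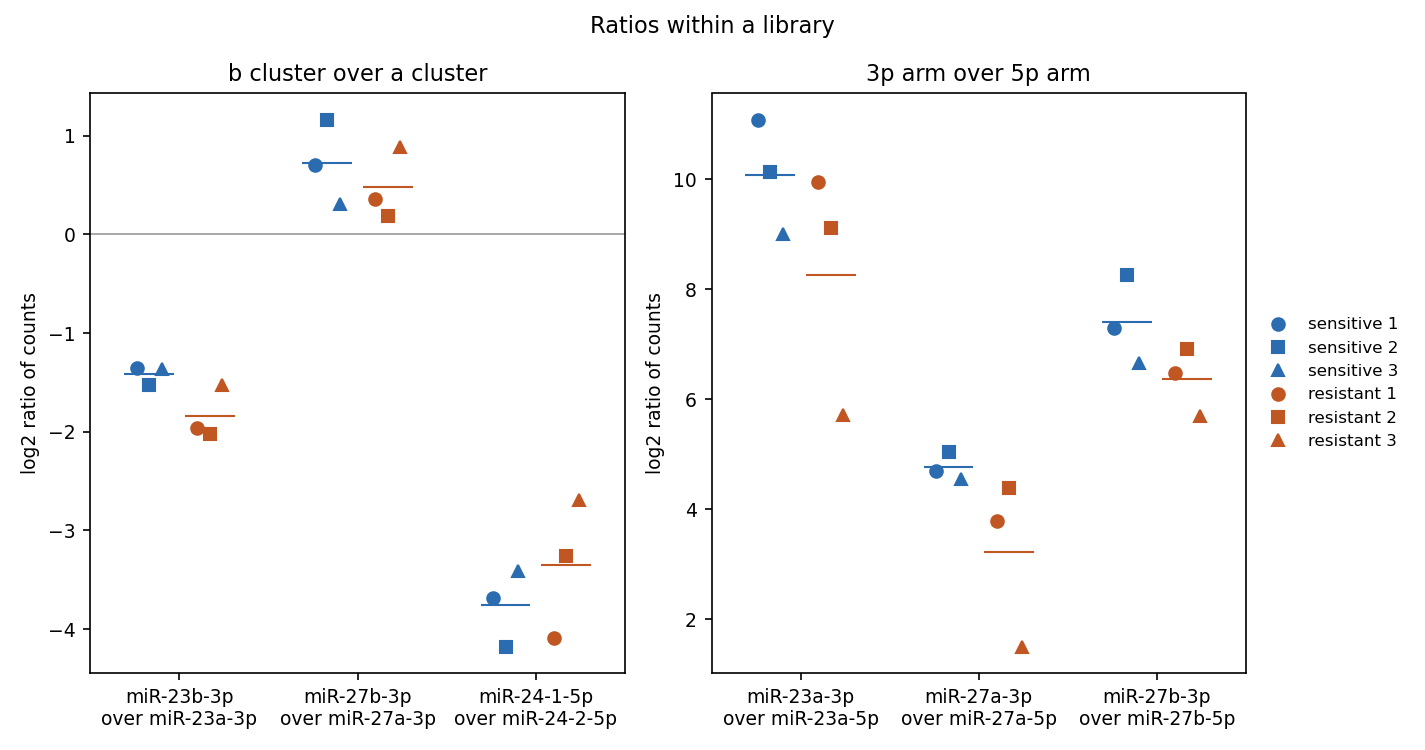
Log2 ratios of counts (0.5 added to each) within a library, for paralogues of both clusters on the left and for the 3p over the 5p arm of a hairpin on the right, with 1 point per library and a bar at each group mean. The groups are apart for miR-27a-3p over miR-27a-5p and, barely, for miR-23b-3p over miR-23a-3p, which overlap with 5 added to each count (exact permutation p = 0.2).

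In MIR27A, MIR27B, MIR23A and MIR23B the 3p arm was the more abundant in every library. The 5p arm held 3.72%, 2.95% and 4.08% of the counts of the MIR27A arms in sensitive and 6.79%, 4.56% and 26.1% in resistant libraries, all resistant values being higher. The mean log2 ratio of miR-27a-3p over miR-27a-5p averaged 4.76 ± 0.25 in sensitive cells, against 3.22 ± 1.52 in resistant ones (SD, n = 3 libraries a group), a difference of -1.54 that was -0.68 without resistant replicate 3. The exact permutation p was 0.1, the smallest possible, and 0.3 after adjustment over the 6 ratios.

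For MIR27B the 5p share was 0.631%, 0.324% and 0.979% in sensitive and 1.11%, 0.817% and 1.88% in resistant libraries, with overlap between sensitive replicate 3 and resistant replicate 2. The log2 ratio of its arms differed by -1.04 (exact permutation p = 0.2, adjusted 0.4). For MIR23A the 5p share was at most 0.184% outside resistant replicate 3, where it was 1.83% (exact 95% binomial interval 1.20% to 2.68%, which covers counting error only). The log2 ratio of its arms differed by -1.82 (exact permutation p = 0.3, adjusted 0.45), and by -0.54 without resistant replicate 3. For MIR23B, whose 5p arm is not among the members, the 5p share was 1.74% to 3.22% in 5 libraries and 11.4% in resistant replicate 3 (exact 95% binomial interval 8.85% to 14.4%).

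Members differed in how far resistant replicate 3 departed from its group. Against the mean log2 CPM of resistant replicates 1 and 2, it was 4.06-fold lower for miR-27a-3p, 3.33-fold lower for miR-24-2-5p and 2.67-fold lower for miR-27b-3p. It was 1.17-fold lower for miR-23b-3p, 1.47-fold higher for miR-27a-5p and 7.60-fold higher for miR-23a-5p. Products of the same cluster thus departed by different amounts in that library. Across the 677 tested miRNAs with a sequence, this deviation rose with the GC content of the mature miRNA (Spearman's rho 0.715, a description across miRNAs of the same libraries). miR-23a-5p has the highest GC content of the members, 59.1%, and the other members lie between 45.5% and 54.5%, around the tested median of 47.8%. The members did not all follow the trend. miR-27a-3p and miR-24-2-5p, the members that fell furthest, have 52.4% and 50.0% GC, both above that median. With a correction for GC content, miR-23a-5p had a log2 fold change of 1.17 (edgeR adjusted p = 0.378), against 2.13 without it, and miR-27b-3p had -0.86 (edgeR adjusted p = 0.143). miR-27a-5p moved from 0.66 to 0.28 (edgeR adjusted p = 0.606). miR-24-3p moved away from 0, from -0.22 to -0.50 (edgeR adjusted p = 0.428), as did miR-27a-3p, from -0.60 to -0.74 (edgeR adjusted p = 0.408).

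**Figure D4:**
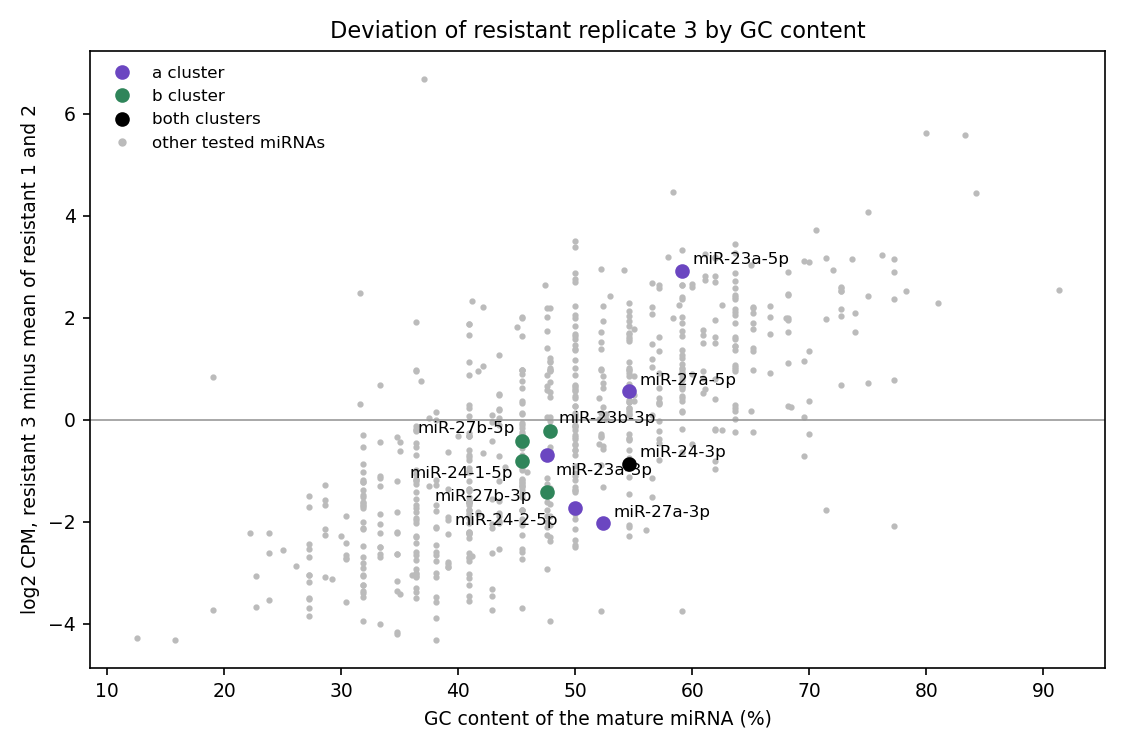
Deviation of resistant replicate 3 from the mean of resistant replicates 1 and 2 in log2 CPM, against the GC content of the mature miRNA, for tested miRNAs with a RefSeq sequence (grey) and the members (coloured by cluster). The grey points rise with GC content (Spearman's rho 0.715), and the members run from -2.02 for miR-27a-3p to 2.93 for miR-23a-5p.

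Among 13 other miRNAs related by sequence or position, 9 were tested and 1 was called with all libraries, against 4.17% of all tested miRNAs. let-7d-5p, whose hairpin lies on chromosome 9 upstream of the b cluster (chr9:94178834-94178920), rose. Its CPM was 10.6, 10.5 and 10.2 in the sensitive libraries, against 34.1, 33.7 and 75.0 in the resistant ones (log2 fold change 2.18, SE 0.47, edgeR adjusted p = 0.0482). Without resistant replicate 3, 3 of the 9 were called, near the 28.1% of all tested miRNAs: let-7d-5p rose and 2 others fell. Both that fell come from MIR181C (chr19:13874699-13874808), on the strand opposite to the a cluster (chr19:13836287-13836659). miR-181c-5p then had a log2 fold change of -1.42 (edgeR adjusted p = 0.00657) and miR-181c-3p one of -0.87 (edgeR adjusted p = 0.0448).

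The remaining related miRNAs were not called in either test. miR-128-3p, whose seed is that of miR-27 moved by 1 base, was at 5104 ± 711 CPM in sensitive cells, against 4931 ± 362 in resistant ones (SD, n = 3 libraries a group; log2 fold change -0.05, edgeR adjusted p = 0.930). miR-9985, which has the miR-27 seed, summed to 194 counts over all libraries, and miR-23c, which has the miR-23 seed, to 9, too few to be tested. So nearly all counts with the miR-23 or miR-27 seed were those of the members. miR-23b-5p had a log2 fold change of 0.46 (edgeR adjusted p = 0.656), and miR-3074-5p, opposite MIR24-1, one of 0.43 (edgeR adjusted p = 0.610).

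The tested miRNAs most like the 3p members over the 6 libraries were found among 469 with a mean of at least 10 CPM, by Pearson's r of log2 CPM. They were miR-374b-3p for miR-23a-3p (r = 0.997), miR-548ae-3p for miR-23b-3p (r = 0.991) and miR-140-5p for miR-27a-3p (r = 0.993). For miR-27b-3p, miR-136-3p and then miR-223-3p (r = 0.998) came first, and for miR-24-3p, miR-17-3p (r = 0.991). With 6 points, of which resistant replicate 3 is often far from the rest, such values describe these libraries only. A member of the same clusters was among the 3 nearest in 1 case, miR-24-2-5p for miR-24-3p (r = 0.973).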

How the data were processed

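Small RNA was sequenced from 3 azacitidine-sensitive and 3 azacitidine-resistant K562 libraries, grouped by their titles. Per the labels' protocols, RNA was extracted with TriPure, treated with DNase, made into NEBNext small RNA libraries and run on a NovaSeq instrument. The authors deposited whole-number read counts per mature miRNA, with no normalization found in the values. Reads were placed on GRCh38, per the submitters' processing notes. Which aligner, counting program and miRBase release were used, and how reads with several matches were treated, is not given in the sources used here. The counts carry no molecular identifiers.

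Counts were tested with edgeR 4.0.16 in R 4.3.3 (quasi-likelihood F test, TMM factors, filterByExpr with a minimum count of 10 and a minimum total of 15, no covariates, Benjamini-Hochberg adjustment over all tested miRNAs, threshold 0.05). SE is approximate, the size of the log2 fold change over the root of F, and the 95% intervals use the t distribution with the test's degrees of freedom. The edgeR, DESeq2 and limma-voom fits were tested on simulated counts that held no outlying library, so these do not bear on resistant replicate 3. Fits with quality weights or a GC correction were not simulated. Ratios used counts plus 0.5 and exact permutation tests over libraries. No replicate pair agreed within sampling noise (chi-square per degree of freedom 124 to 4020). Every member is named, and so are other miRNAs by shared seed, position, or the 3 highest correlations. The members and lists were chosen with earlier results of these data known. Alternatives were RLE factors, library totals, other filters, DESeq2 1.42.0, limma-voom 3.58.1 with and without quality weights, a replicate block, a GC correction (loess on mature sequences, which 88.2% of tested miRNAs had) and leaving out each library. Of the 12 fragment-like annotations listed, 11 were in the table.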

Additional observations from a re-analysis of the deposited data

How the results depend on the processing

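No member was called with all libraries under RLE factors, library totals, no filter, a minimum mean of 10 CPM, DESeq2, limma-voom, a GC correction, or a replicate block with or without that correction. Quality weights in limma-voom called 1 member higher (miR-27a-5p, 0.61, limma adjusted p = 0.0367) and 2 lower (miR-23b-3p, -0.53, limma adjusted p = 0.0336, and miR-27b-3p, -0.60, limma adjusted p = 0.0108), in a fit that called 323 of 768 miRNAs (42.1%). Leaving out single libraries gave 0 to 1 member lower, the 1 being miR-27b-3p without resistant replicate 3 (-0.57). Over its 16 alternatives the adjusted p of miR-27b-3p ran from 0.0108 to 0.523, and its log2 fold change from -1.08 to -0.57. Of 158 member values under alternatives, 127 kept their sign and side of the threshold, 4 came to pass it and 27 changed sign, none of the latter past the threshold. miR-23a-5p and miR-24-1-5p were not tested with a minimum mean of 10 CPM. All 6 ratio differences kept their sign with 5 in place of 0.5 added to each count and without each library. With 5 added, the groups for miR-23b-3p over miR-23a-3p overlapped (-0.42, exact permutation p = 0.2).

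The sign changes were of values near 0. miR-23a-3p (-0.16) became 0.05 with library totals, 0.01 with the minimum of 10 CPM and 0.06 with quality weights (-0.15 to 0.08 with 1 library left out). miR-24-2-5p (-0.34) became 0.02 with quality weights (-0.50 to 0.09), and miR-24-3p (-0.22) became 0.01 with library totals (-0.23 to 0.07). miR-27b-5p (-0.13) became 0.06 with library totals, 0.05 with the minimum, 0.19 with quality weights, 0.15 with the GC correction and 0.25 with that and the block (-0.29 to 0.33). miR-24-1-5p (-0.07) became 0.02 with RLE factors and limma-voom, 0.17 with library totals and the GC correction, 0.03 with DESeq2, 0.12 with quality weights and 0.23 with the GC correction and the block (-0.42 to 0.31). The cause was not tested.

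Over all tested miRNAs, higher and lower calls numbered 9 and 12 with RLE factors, 27 and 16 with library totals, 115 and 47 without a filter, 7 and 6 with the minimum of 10 CPM, 98 and 51 with DESeq2, 148 and 175 with quality weights, and 38 and 32 with the GC correction. With 1 library left out they ran from 1 to 113 and from 3 to 118, both highest without resistant replicate 3. With the replicate block, 8 were higher and 15 lower. Whether replicate numbers pair the libraries stayed undecided. Same-numbered libraries' deviations from their group means correlated at -0.0624, 0.256 and 0.13. The libraries numbered 2 correlated best with each other, as did those numbered 3, while sensitive replicate 1 and resistant replicate 1 did not. Depth limits miR-23a-5p and miR-24-1-5p most, with 4 to 26 and 5 to 67 counts a library.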
